A study of Mus musculus with 8 samples.

Results

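Accessible chromatin was examined at the genes of 7 receptor chains that bind cytokines of the common gamma chain family: Il2rg, Il2rb, Il7r, Il4ra, Il15ra, Il21r and Il9r. The members are all accessible regions that overlap the RefSeq body of one of these genes, extended by 10 kb on both sides, in ATAC-seq peak lists of 8 mouse T cell libraries. ATAC-seq marks open DNA by the insertion of sequencing adapters by a transposase. There were 75 such regions of 175276 in all, and no region fell in the windows of more than 1 of the 7 genes. The source was naive CD4+ T cells sorted from spleen, stimulated through CD3 and CD28 for 48 h in the presence of TGF-β at 20 ng/mL, conditions that induce regulatory T cells. The libraries were made from 90000 cells each. The genotypes were control (also labelled WT) and Tet1/3 cDKO, a conditional double knockout of Tet1 and Tet3, which encode enzymes of DNA demethylation. Cells of each genotype were grown without added IL-2 or with 100 U of it. Each of the 4 groups had 2 libraries, which the design calls biological replicates. The sources used here do not give the Cre driver, the deleted exons, the strain, the age of the mice or the animals behind each library. A p-value below therefore reflects the spread among libraries, which may be technical.

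The receptors of this family share 1 signalling chain, the common gamma chain encoded by Il2rg. It pairs with a chain that is specific to the cytokine: Il7r for IL-7, Il4ra for IL-4, Il9r for IL-9 and Il21r for IL-21. The receptors for IL-2 and IL-15 also share the beta chain encoded by Il2rb, and Il15ra encodes the chain with high affinity for IL-15. Binding brings together the kinases JAK1 and JAK3, which phosphorylate STAT factors. IL-7 receptor is typical of naive and memory T cells, and IL-2 signalling through STAT5 supports regulatory T cells.

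The peak lists held 65811 to 145979 peaks, so each library was reduced to its 65811 peaks of highest −log10 p, the authors' own value of a peak's strength against local background. A region is called listed in a library when one of those peaks overlaps it, and rank 1 is the strongest peak of a library. Read depth is not stated in these lists. All 8 marker genes of CD4 T cells (Cd3e, Cd3g, Cd3d, Cd4, Cd28, Lck, Cd5 and Cd2) had listed regions in every library, 48 to 57 per library in all, with 50 to 57 in control and 48 to 55 in cDKO. Markers of other cell types had listed regions as well: 8 to 10 per library for 5 genes of CD8 T and NK cells, of which Ncr1 had none, 14 to 18 for 5 B cell genes, 14 to 21 for 6 myeloid genes and 9 or 10 for 4 erythroid genes. The ranges of control and cDKO overlapped in each of these lists, and their part in the results was not tested. The targeted genes Tet1 and Tet3 had 6 to 9 and 11 to 13 listed regions per library, which does not check the deletion because the deleted parts are not given.

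Promoters are shown first because 6 of the 7 members (not Il2rb) matched RefSeq's promoter sequences (GRCm38.p6, from 250 bases before to 50 after an annotated start), and each of their 7 promoters lay under a listed region. Capitals mark matches, on either strand, to TTCNNNGAA (STAT), TGTGGT (RUNX), TGANTCA (AP-1) or GGAAG (the ETS core). Of the sequences, 4 are given, each in the direction of its gene. Il7r and Il9r are shown because their numbers of listed regions did not overlap between genotypes, although neither passed adjustment. The annotated Il9r start (32200279) lies inside the gene, whose boundary at the 5′ side is at 32205283. Il2rg is shown because it is the shared chain. Il4ra is shown because it is the richest of the 7 promoters in CpG, the site at which TET enzymes act.
Il7r promoter, chr15:9529827-9530126, minus strand: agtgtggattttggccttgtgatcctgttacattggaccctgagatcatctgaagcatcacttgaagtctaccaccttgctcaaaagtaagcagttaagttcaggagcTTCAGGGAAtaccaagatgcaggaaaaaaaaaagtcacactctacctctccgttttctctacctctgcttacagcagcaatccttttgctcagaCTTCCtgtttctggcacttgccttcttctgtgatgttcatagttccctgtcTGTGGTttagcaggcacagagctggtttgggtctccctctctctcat
Il9r promoter, chr11:32200230-32200529, minus strand: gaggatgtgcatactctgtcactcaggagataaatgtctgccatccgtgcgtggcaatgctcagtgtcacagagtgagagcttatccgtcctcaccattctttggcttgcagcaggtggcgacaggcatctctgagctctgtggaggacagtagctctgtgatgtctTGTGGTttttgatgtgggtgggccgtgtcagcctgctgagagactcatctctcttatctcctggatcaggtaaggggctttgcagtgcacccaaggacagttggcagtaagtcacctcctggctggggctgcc
Il2rg promoter, chrX:101268206-101268505, minus strand: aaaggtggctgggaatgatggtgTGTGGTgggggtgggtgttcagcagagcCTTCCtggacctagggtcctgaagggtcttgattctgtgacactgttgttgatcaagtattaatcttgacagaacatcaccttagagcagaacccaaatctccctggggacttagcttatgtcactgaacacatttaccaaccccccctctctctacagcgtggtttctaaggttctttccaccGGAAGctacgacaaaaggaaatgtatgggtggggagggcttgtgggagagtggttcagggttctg
Il4ra promoter, chr7:125552021-125552320, plus strand: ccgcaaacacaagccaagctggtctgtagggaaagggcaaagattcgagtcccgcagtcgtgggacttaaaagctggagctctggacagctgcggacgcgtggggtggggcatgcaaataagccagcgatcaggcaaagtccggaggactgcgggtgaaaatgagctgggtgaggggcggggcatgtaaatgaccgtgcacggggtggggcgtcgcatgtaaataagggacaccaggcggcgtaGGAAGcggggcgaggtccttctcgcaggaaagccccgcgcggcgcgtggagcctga

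The Il7r promoter held 1 match each to the STAT, RUNX and ETS patterns, the STAT match beginning at position -142, with the annotated start as position 0. It was the only 1 of the 7 promoters with the STAT pattern, which 8.3% of all 32851 promoters of that length held. The RUNX pattern (16.8% of all promoters) was present at Il7r, Il9r, Il2rg and Il21r, and the AP-1 pattern (7.81%) at the second Il15ra start. ETS core matches were found at Il7r, Il2rg, Il4ra and both Il15ra starts, but 71.4% of all promoters have one. No match overlapped a match to another pattern. CpG number ranged from 1 in the Il7r promoter, above 5.43% of all promoters, through 3 for Il2rg and 5 for Il9r, to 25 for Il4ra, above 81.6%. The median over all promoters was 7. A match is a description of the letters only.

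Summits stood close to the annotated starts of Il2rg, Il4ra and Il7r. At Il2rg the summit of the region lay between positions -85 and 12 over the 8 libraries, and at Il4ra between -65 and -16. At Il7r it lay between -4 and 66. At Il21r it was at -185 to -57 and at Il9r at -260 to -126, all upstream of the start. The position of a region's summit varied by a median of 84 bp between libraries over the 27 member regions listed in all 8, beside 75 bp over all 40694 such regions.

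Of the 75 regions, 49 were listed in at least 1 library and 27 in all 8. The other 26 appeared only below rank 65811, the strongest of them at rank 66272. Among the 49, 55.1% were listed everywhere, against 42.4% of the 95899 regions of the whole data set that were listed at least once. Of the 49, 26 lay inside or across the boundary of the gene and 23 in the flanks. Exon structure was not used here, so positions within genes are not divided into exons and introns.

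**Figure D1:**
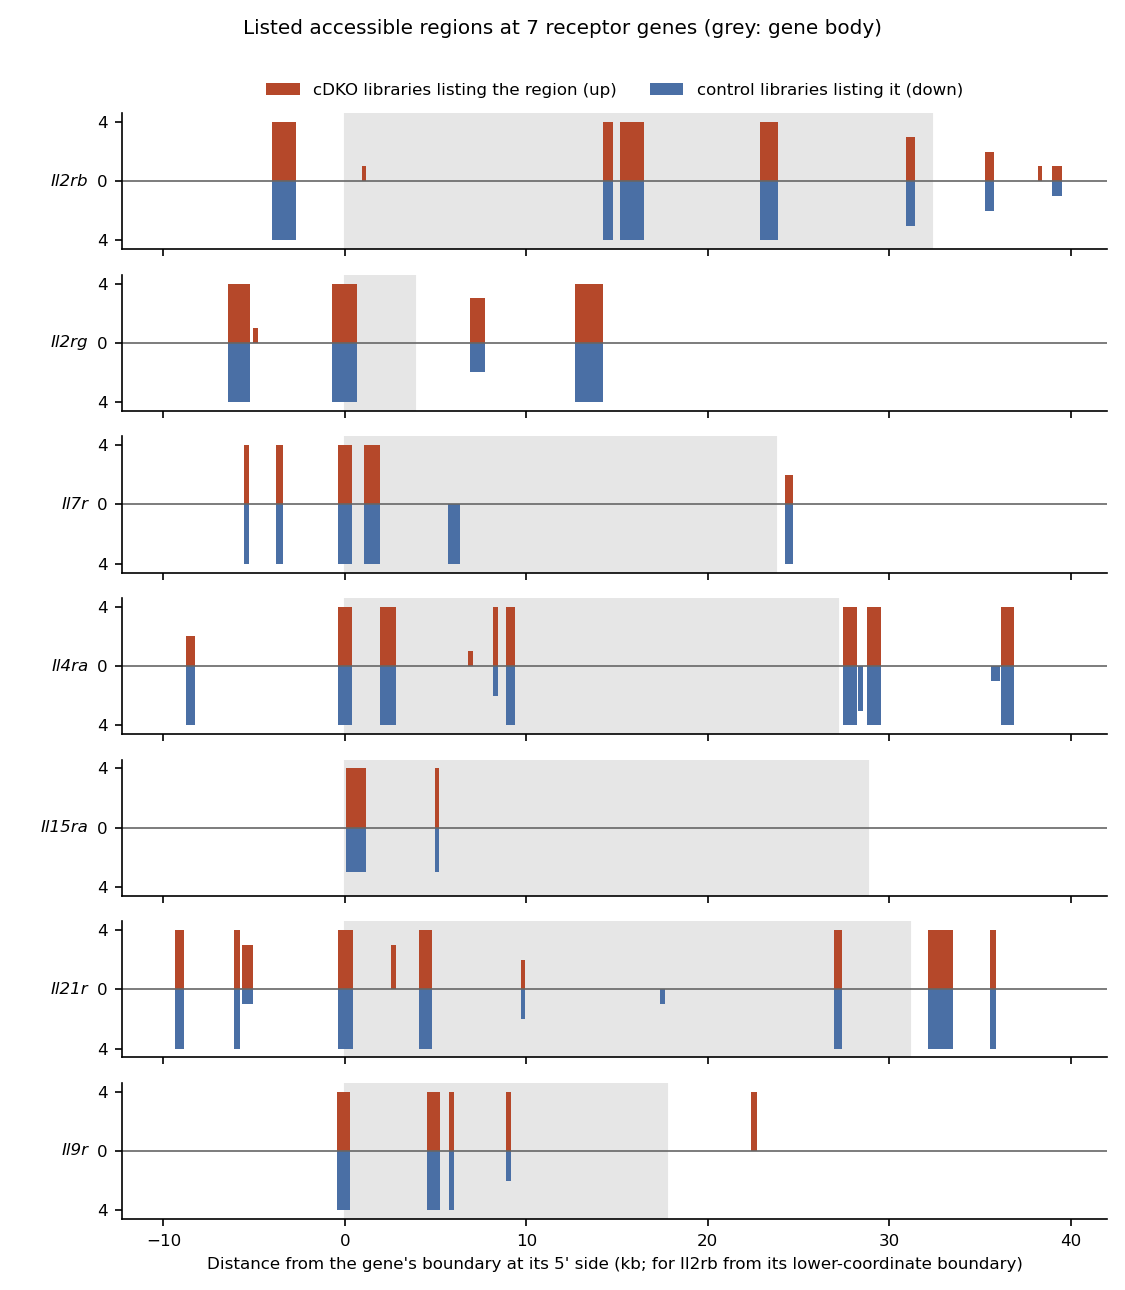
Map of the listed regions at each gene, with the distance from the gene's boundary in kb on the x axis (grey, gene body). Bars give the number of cDKO libraries (up) and control libraries (down) that list a region, out of 4 each, and the bars without a counterpart inside Il7r and downstream of Il9r are the regions that separated all libraries by genotype.

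Loci differed in their number of listed regions. Il21r had the most listed regions, 8.5 ± 0.756 per library (SD, n = 8), and Il4ra 8.12 ± 1.13, a difference within their spread. Il2rb had 5.75 ± 1.16, Il7r 5.25 ± 0.886 and Il9r 4.25 ± 0.886, neighbours that overlap in spread, and Il2rg 3.75 ± 0.463. Il15ra was lowest with 1.75 ± 0.463, and no library listed more than 2 regions there. Per 10 kb of window, Il4ra had 1.72, Il21r 1.66, Il2rg 1.57, Il7r 1.2, Il9r 1.13, Il2rb 1.1 and Il15ra 0.359. The median over 17551 protein-coding genes with a listed region was 0.602, so Il15ra was the only member under it. Bases covered by listed peaks gave another order. They were 2848 to 4774 per library at Il2rg, 1716 to 2760 at Il7r and 1436 to 1946 at Il9r.

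**Figure D2:**
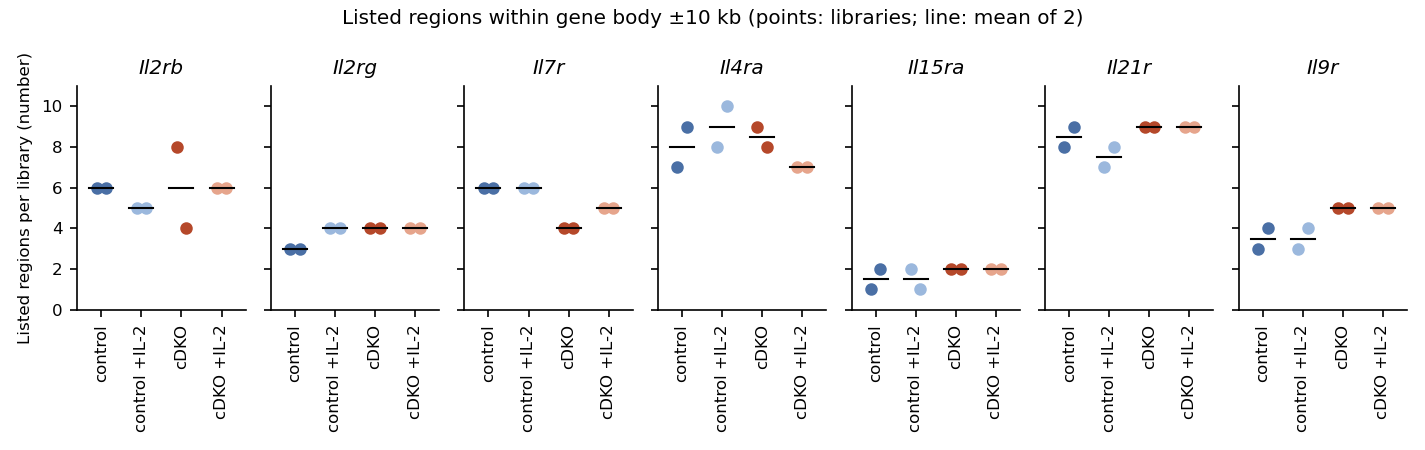
Number of listed regions (y axis) within each gene body extended by 10 kb, by group (x axis). Points are libraries and lines the mean of 2. Il7r has 6 in every control library and 4 or 5 in cDKO, and Il9r has 3 or 4 in control against 5 in cDKO.

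The question of the genotype comparison is how loss of Tet1 and Tet3 changes open chromatin during regulatory T cell induction. At these loci the difference was small in number and went both ways. Il7r had fewer listed regions in cDKO and Il9r more, while the other 5 genes overlapped between genotypes. Il7r held 6, 6, 6 and 6 in the control libraries and 4, 4, 5 and 5 in the cDKO libraries, a mean difference of -1.5. Il9r held 3, 4, 3 and 4 in control and 5, 5, 5 and 5 in cDKO, a mean difference of 1.5. Neither set of values overlapped. Each had p = 0.0286 in the exact 2-sided permutation test over 70 relabellings, the smallest that test allows with 4 libraries per side, and an adjusted p of 0.899 over 17551 genes (Benjamini-Hochberg). The relabelling ignored the IL-2 arms, so each side joins libraries grown without and with IL-2. With relabelling only within pairs of libraries, both genes had an exact permutation p of 0.125, the smallest of 16 relabellings. In the test over 70 relabellings no gene passed after adjustment, and 558 had an unadjusted p under 0.05. With a smallest p of 0.0286, a gene could pass only if most genes reached that p. The adjustment therefore cannot decide about single genes. Over all genes, 1.64% had fewer and 1.54% more listed regions in cDKO without overlap, against 1 of 7 members in each direction. With the full deposited lists neither gene separated the genotypes (differences of -1 and 0.5), and the same held with ranking by fold enrichment (-0.5 and 0.75).

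The remaining receptors gave no separation. Il21r had 7 to 9 listed regions in control libraries and 9 in each of the cDKO libraries, a mean difference of 1. Its exact permutation p was 0.143. Il4ra had 7 to 10 in control and 7 to 9 in cDKO. At Il2rb the control libraries had 5 or 6 and the cDKO libraries 4 to 8, the widest range of any group. Il2rg had 4 in all libraries except those of control without IL-2, which had 3 each. Il15ra had 1 or 2 in control libraries and 2 in those of cDKO.

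A region is called lower in cDKO when all 4 control libraries list it and no cDKO library does, and higher in the opposite case. At the receptor genes 1 of 49 listed regions was lower, at Il7r, beside 1.12% of all listed regions, and 1 of 49 was higher, at Il9r, beside 0.706%. Both shares, 2.04%, are a single region each. The same regions are counted in the Il7r and Il9r numbers above, so the calls are not a separate line of evidence.

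The lower region lay inside Il7r (chromosome 15, 9523600 to 9524273, GRCm38), 5.67 kb from the boundary at the 5′ side of the gene. Its peak ranked 53090 and 52089 in control without IL-2 and 45256 and 40237 in control with IL-2. In cDKO it ranked 70055 and 97416 without IL-2 and 66438 and 66571 with IL-2. Every control library ranked it above every cDKO library, but all 8 deposited lists hold it, and in the cDKO libraries with IL-2 it missed rank 65811 narrowly. Fold enrichment in the deposited lists was 5.26, 4.54, 5.12 and 4.16 in control and 4.25, 3.17, 4.19 and 4.24 in cDKO, which overlap. To compare like with like, the 52224 regions present in all 8 deposited lists were also ranked among themselves. There the Il7r region stood at 37370 to 44242 in control and at 48356 to 51862 in cDKO, again without overlap. Of all such regions 6.78% were worse ranked in cDKO without overlap, and 3 of 34 member regions were.

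A second Il7r region, 0.505 kb beyond the 3′ side of the gene (9505214 to 9505654), was absent from both cDKO libraries without IL-2. It ranked 38430 and 59731 in control without IL-2 and 17447 and 20186 in control with IL-2. In cDKO with IL-2 it ranked 54002 and 51093, and neither deposited list of cDKO without IL-2 held a peak there at any rank. The region was therefore lower in cDKO within the arm without IL-2 and higher with IL-2 within cDKO, each with 2 libraries against 2, where no p under 0.333 is possible. In control the libraries with IL-2 also ranked it better than those without.

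The other 4 Il7r regions were listed in every library. The region across the promoter shown above (9529532 to 9530298) ranked 12130 to 21209 in control and 10608 to 26887 in cDKO. The regions 3.39 kb and 5.26 kb upstream ranked 17020 to 33854 and 17402 to 27679 in control, and 23214 to 34751 and 20129 to 34927 in cDKO. These ranges overlapped between genotypes at each region. The bases covered by listed peaks at Il7r were 2482 to 2760 in control and 1716 to 2512 in cDKO, which overlap because of cDKO with IL-2 replicate 2.

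**Figure D3:**
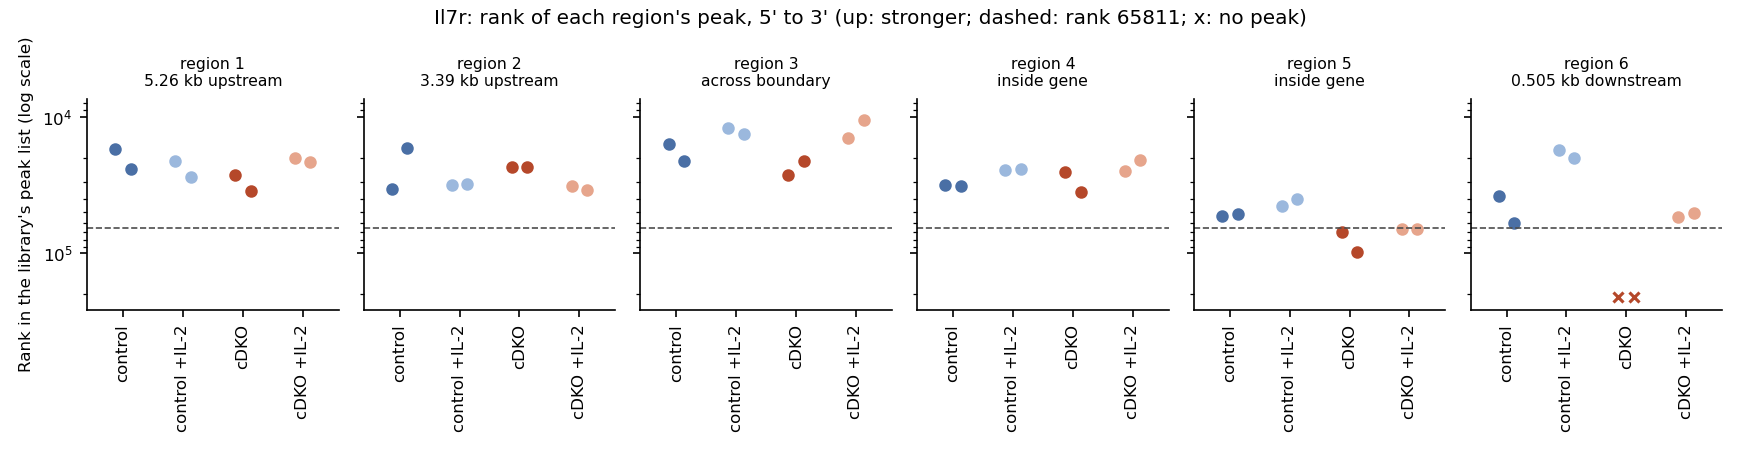
Rank of the peak (y axis, log scale, stronger peaks at the top) at the 6 listed Il7r regions, ordered from the 5′ to the 3′ side of the gene, by group (x axis). Points are libraries, the dashed line is rank 65811 and crosses mark lists without a peak. Region 5 lies under the line in all 4 cDKO libraries, and region 6 has no peak in cDKO without IL-2.

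The higher region lay 4.67 kb beyond the 3′ side of Il9r (chromosome 11, 32182569 to 32182877). It ranked 64608 and 53753 in cDKO without IL-2 and 51767 and 55453 in cDKO with IL-2. In control it ranked 71510 and 75437 without IL-2 and 91502 in replicate 1 with IL-2, and replicate 2 with IL-2 held no peak there. In the cDKO libraries these ranks lie between 51767 and the limit of 65811, and 3 deposited control lists held the region below that limit. Fold enrichment was 7.55, 4.89 and 4.82 in the control lists that held it and 6.27, 7.88, 7.13 and 7.89 in cDKO, which overlap. The summit of this region varied by only 10 bp between the libraries that listed it.

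A region inside Il9r (32196148 to 32196400) also ranked better in cDKO, although 2 control libraries listed it. The ranks were 37572, 35254, 38010 and 33983 in cDKO and 91859, 46933, 77769 and 60972 in control. Fold enrichment was 5.28, 5.43, 5.1 and 5.66 in cDKO and 3.59, 4.17, 3.54 and 3.08 in control, without overlap in either measure. Among regions present in all 8 deposited lists, 6.17% were better ranked in cDKO without overlap, and 2 of 34 member regions were, this one and a region inside Il4ra (125560440 to 125560682). The strongest region of the Il9r window (32204993 to 32205732) crosses the boundary at the 5′ side of the gene and the neighbouring gene Snrnp25. It ranked 1391 to 3388 in control and 2577 to 5985 in cDKO. The region at the Il9r promoter shown above lies inside the gene, 4.52 kb from that boundary. It ranked 16009 to 35915 in control and 22251 to 28948 in cDKO.

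**Figure D4:**
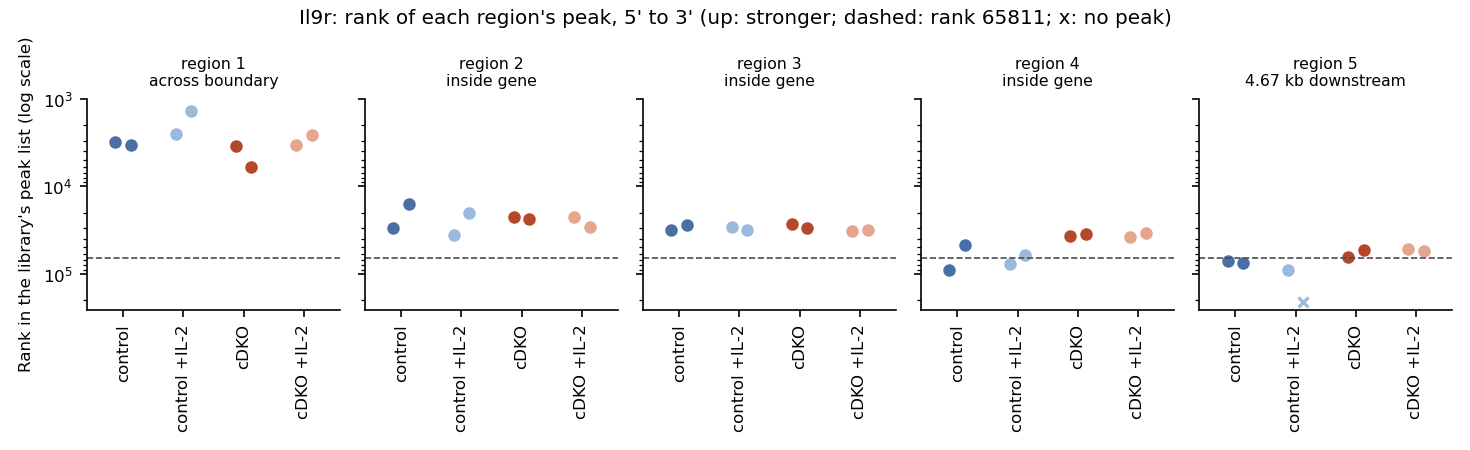
Rank of the peak (y axis, log scale, stronger peaks at the top) at the 5 listed Il9r regions from the 5′ to the 3′ side, by group (x axis). Points are libraries, the dashed line is rank 65811 and the cross marks a list without a peak. Regions 4 and 5 rank better in every cDKO library than in any control library that has a peak.

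At Il4ra, which encodes the chain that binds IL-4, ranks of single regions differed in both directions. The Il4ra region 125560440 to 125560682 ranked 29050, 39697, 41612 and 52603 in cDKO and 67181, 59813, 77836 and 56414 in control. In the opposite direction, a region 8.28 kb upstream (125543498 to 125543996) ranked 48001, 30899, 32495 and 45244 in control and 53331, 59052, 73037 and 84202 in cDKO. These 4 cDKO libraries all ranked it worse than any control library. Its fold enrichment was 5.31 to 8.88 in control and 5 to 7.21 in cDKO, which overlap. At the region 125560440 to 125560682 fold enrichment was 3.17 to 4.2 in control and 4.44 to 6.26 in cDKO, without overlap. Both Il4ra regions belong to the member regions ranked apart among the deposited lists. Those were 2 of 34 better in cDKO (5.88%, beside 6.17% of all) and 3 of 34 worse (8.82%, beside 6.78%). Within the IL-2 arm the upstream region was lower in cDKO, as was a region 1.11 kb downstream (125580583 to 125580825), which no cDKO library listed but which control without IL-2 replicate 1 did not list either. The region at the Il4ra promoter ranked 15036 to 29575 in control and 14702 to 18916 in cDKO. These ranks overlapped, while its fold enrichment did not (4.76 to 6.26 in control, 6.7 to 7.39 in cDKO). The strongest region of all 7 windows lay 8.98 kb downstream of Il4ra (125588451 to 125589177), at rank 182 to 1073 in the 8 libraries. It lies just within the 10 kb limit for Il4ra and, at 14.1 kb, just outside that for Il21r. The nearest listed region beyond any limit lay 10.2 kb from Il4ra, in 1 library at rank 58126.

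Regions listed in all 8 libraries cannot be called by presence, so the 40694 of them were ranked among themselves in each library. Of the 27 at receptor genes, 1 was worse ranked in cDKO without overlap, beside 6.22% of all, and 0 were better ranked, beside 5.64% (a comparison of ranks with no test). The region lay inside Il2rb (chromosome 15, 78493480 to 78494025), the beta chain shared by the IL-2 and IL-15 receptors. Its rank among common regions was 7475, 6028, 7458 and 6303 in control and 11512, 19642, 14228 and 14402 in cDKO. Fold enrichment was 6.47 to 7.82 in control and 6.13 to 7.33 in cDKO, ranges that overlap. When peaks were ranked by fold, 0 member regions were worse ranked in cDKO and 1 was better ranked. Beside it, the strongest Il2rb region (78494420 to 78495718) ranked 1074 to 3653 in control and 386 to 3037 in cDKO. The median difference in log2 rank between genotypes was 0 over the 27 member regions and -0.01 over all common regions.

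Added IL-2 is a growth signal that acts through Il2rb and Il2rg. No region at the 7 genes was listed in all 4 libraries with IL-2 and in none without it, or the reverse, beside 0.348% and 0.229% of all listed regions. These counts rest on presence in lists and carry no p. No member gene separated the arms by its number of regions, beside 0.558% and 0.541% of all genes, and the exact permutation p-values were 0.429 to 1 (n = 4 per side). Over all genes none passed adjustment and 193 had an unadjusted permutation p under 0.05. The limit of the adjustment given for genotype holds here as well.

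Ranks among common regions were better with IL-2 at a pair of regions each of Il2rb and Il7r. Of the 27 member regions 4 were better ranked with IL-2 without overlap, 14.8% beside 2.96% of all, and 0 were worse ranked, beside 2.87%. Of the 27, 19 had a better mean log2 rank with IL-2 (70.4%, against 51.2% of all common regions). The median difference was -0.15 on the log2 scale, where negative is better, against -0.01 over all. Whether the 4 regions exceed what lists of this kind give was not tested.

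At Il2rb these were a region inside the gene (78502117 to 78503149) and one 2.71 kb from its lower-coordinate boundary (78475250 to 78476543). The region inside the gene ranked 35337 and 25758 in control and 25409 and 31420 in cDKO without IL-2. With IL-2 it ranked 16744 and 14342 in control and 16254 and 14272 in cDKO. Its fold enrichment was 8.42, 8.97, 9.85 and 8.37 without IL-2 and 10.4, 9.17, 10.5 and 10.7 with it, overlapping through control with IL-2 replicate 2. The region outside ranked 4859 and 4722 in control and 4297 and 4223 in cDKO without IL-2, and 3720, 2591, 2487 and 3675 with it. Its fold enrichment was 8.46, 8.32, 9.81 and 9.27 without IL-2 and 8.75, 8.56, 9.8 and 8.26 with it, which overlap.

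At Il7r the region across the promoter ranked 15680 and 20941 in control and 25891 and 20822 in cDKO without IL-2. With IL-2 it ranked 12007 and 13249 in control and 14233 and 10578 in cDKO. The region just inside the gene (9527989 to 9528867) ranked 29204 and 30141 in control and 24591 and 32196 in cDKO without IL-2. With IL-2 it stood at 23416, 23189, 24179 and 20430, close to cDKO without IL-2 replicate 1. Fold enrichment overlapped between the arms at both Il7r regions. Across the promoter it was 6.28 to 7.39 without IL-2 and 6.53 to 8.15 with it. At the region just inside the gene it was 5.1 to 7.12 without IL-2 and 4.81 to 6.71 with it. Il7r and Il2rb thus each had a pair of regions at which no library without IL-2 reached the rank of any library with it. With regions of the full deposited lists 5 of 34 were better ranked with IL-2, beside 3.15% of all, and 0 worse, beside 2.85%. The added one lay inside Il4ra (125554186 to 125555069). With lists of 32905 peaks, 2 regions were better ranked with IL-2 and 0 worse, and with ranking by fold 3 were better and 0 worse. Without control replicate 1 of the arm without IL-2, 7 were better ranked and 2 worse, and without control replicate 2 of that arm 5 were better and 1 worse. Separation is easier to reach with a library left out.

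**Figure D5:**
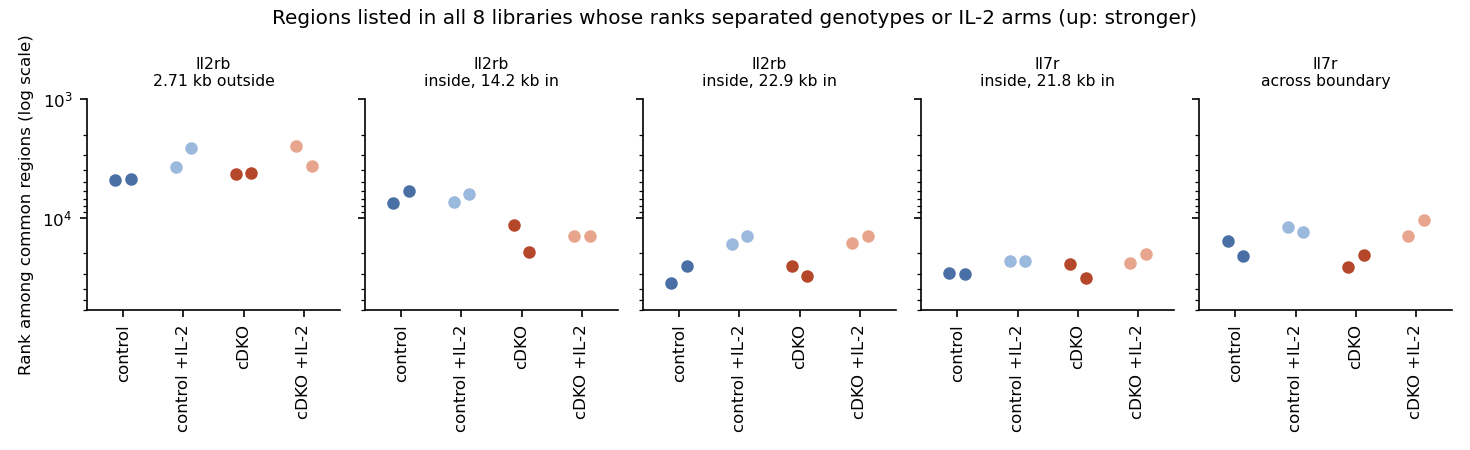
Rank among the 40694 regions listed in all 8 libraries (y axis, log scale, stronger at the top) for the 5 member regions whose ranks separated the genotypes or the IL-2 arms, by group (x axis), with points for libraries. The second panel separates genotypes (6028 to 7475 in control, 11512 to 19642 in cDKO) and the other 4 panels separate the arms. Distances inside a gene are from its lower-coordinate boundary.

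Within single arms, 2 libraries stood against 2. Without IL-2, 2 of 47 member regions were lower in cDKO (beside 4.81% of all) and 1 was higher (4.42%), those at Il7r and Il9r given above. Leaving out 1 of the 2 libraries of a side makes a call easier to meet, so such counts can only stay or rise. With IL-2, 3 of 45 were lower (4.46%) and 2 higher (4.05%), but with the deposited lists 0 were lower and 3 higher. The lower ones lay at Il7r and Il4ra, and the higher ones were the region 3′ of Il9r and a region inside Il21r (125605784 to 125606049). The Il21r region ranked 60186 and 53809 in cDKO with IL-2, 80634 in replicate 1 of control with IL-2, and had no peak in replicate 2. In control cells 1 of 43 member regions was higher with IL-2 (2.71%), 3.05 kb from Il2rg within the body of Foxo4, and 2 were lower (2.84%). The Il2rg-side region ranked 56397 and 39129 with IL-2 and 74458 and 73352 without it. The lower ones lay 2.93 kb from Il2rb (78514554 to 78515061) and inside Il21r (125612965 to 125613156). In cDKO cells 1 of 45 was higher with IL-2 (3.3%), the region 3′ of Il7r, and 1 was lower (3.48%), the region upstream of Il4ra. It ranked 53331 and 59052 without IL-2 and 73037 and 84202 with it.

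The shared chain gene Il2rg had a promoter region listed everywhere (101267590 to 101268955), at rank 7094, 8824, 9753 and 9661 in control and 5874, 5955, 8803 and 7130 in cDKO. The rank ranges of the genotypes overlapped, but fold enrichment was 9.38 to 12.3 in control and 13.3 to 15 in cDKO, without overlap. Fold enrichment at the promoter regions of Il7r, Il9r and Il21r overlapped between genotypes. The share of all regions that separate by fold enrichment is not given here. A region 5.22 kb upstream, over the neighbouring gene Med12, ranked 5393 to 11134. It was stronger than the promoter region in the 4 libraries with IL-2 and weaker in the 4 without it. The ranks of neither region separated the arms, and how often a pair of regions changes order in this way was not tested. Il15ra had its promoter region in 7 of 8 libraries (11705214 to 11706318), all except control without IL-2 replicate 1, where it ranked 67178. It ranked 46375, 53530 and 35916 in the other control libraries and 36598, 51037, 30838 and 35989 in cDKO. Its fold enrichment was 4.87 to 5.76 in control and 6.29 to 8.07 in cDKO, without overlap. The other Il15ra region (11710118 to 11710384) was also listed in 7, with no peak in control with IL-2 replicate 2. The next listed region on the side of Il2ra, the neighbouring gene for the alpha chain of the IL-2 receptor, lay 13.7 kb away. The Il21r region at the promoter (125602897 to 125603686) was the strongest of that window in 6 of 8 libraries. In replicate 1 of both control groups the region 8.88 kb upstream was stronger. The promoter region ranked 4991 to 17118 in control and 9726 to 13946 in cDKO.

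The other genes of the pathway, 21 ligands, receptors, kinases, STAT factors and inhibitors, had 144 listed regions. Of these 6 were lower in cDKO (4.17%, beside 1.12% of all listed regions) and 2 higher (1.39%, beside 0.706%). With IL-2, 1 was higher (0.694%, beside 0.348%) and 1 lower (0.694%, beside 0.229%). These are counts without a test. Lower regions lay inside Il15, the gene of the IL-15 cytokine (chromosome 8, 82374519 to 82374820), inside and 4.26 kb from Il13ra1, which forms a receptor with Il4ra, and inside Jak1, Stat3 and Stat5b. The Il15 region ranked 52437, 46214, 47335 and 37356 in control, and of the cDKO lists only replicate 2 with IL-2 held it, at 97004. Higher regions lay inside Jak1 and at the adjoining ends of Stat5a and Stat5b (chromosome 11, 100858288 to 100858561). The 4 inhibitor genes Cish, Socs1, Socs2 and Socs3, with 25 listed regions, had 0 called in either direction in the comparisons over 8 libraries.

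For each receptor gene the most similar other gene was sought by Pearson's correlation, over the 8 libraries, of the log2 rank of the strongest listed peak, among 15807 genes with one in every library. The nearest were Lat for Il2rb (r = 0.965), Primpol for Il2rg (r = 0.964), Mlf1 for Il7r (r = 0.985), 1600014C10Rik for Il4ra (r = 0.962), Catip for Il15ra (r = 0.969), Bcl7c for Il21r (r = 0.981) and Siglec15 for Il9r (r = 0.969). Lat encodes an adapter of T cell receptor signalling. The points share the libraries and their list lengths, and the best of so many genes is high by selection.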

How the data were processed

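Per the submitters' processing notes, the build was GRCm38 (mm10) and the tools named were MACS2 2.2.7.1, Bowtie2 2.4.1, HOMER 4.11.1, Trimmomatic 0.39, SAMtools 1.3.1, DiffBind 2.10.0, Picard and ChIPseeker 1.18.0. The sources used here give neither their roles nor how reads were shifted, deduplicated or used to call peaks. The authors deposited 1 peak list per library, not pooled, with a fold over local background (a ratio), a −log10 p and a −log10 q for each peak, and a summit position. The largest q was 0.05 to rounding. The deposited score column was not used.

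Overlapping peaks of the 8 lists (1 bp or more) were joined into regions. Calls used the 65811 peaks of highest −log10 p per library, the length of the shortest list. Gene bodies came from RefSeq (GRCm38.p6). Region numbers per gene were compared by exact 2-sided permutation tests over 70 relabellings with Benjamini-Hochberg adjustment over 17551 genes. The relabellings for genotype ignored the IL-2 arms, and those for IL-2 ignored genotype. Ranks describe peaks within a library and carry no test. Merging, calling and the permutation test were checked on simulated lists. Work used Python 3.11.15, numpy 2.4.6, pandas 2.3.3 and matplotlib 3.10.9.

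Named regions were the strongest (lowest mean rank) and promoter regions of each gene, those called over 8 libraries, and up to 3 for each comparison of 2 libraries against 2. Further regions with separated ranks, the other regions called in the IL-2 arm, and the deposited-list ranking were chosen after their values were seen. The receptor genes and gene lists were chosen with earlier results of these data known. Alternatives were full lists, N halved, a −log10 q of at least 3, ranking by fold, 50% cover of a region, a looser call, gene bodies alone, each library left out, and a replicate block.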

Additional observations from a re-analysis of the deposited data

Results flagged for a closer look

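A region 0.264 kb downstream of Il4ra (chromosome 7, 125579738 to 125580507) was picked out because its rank moved in opposite directions with IL-2 in the 2 genotypes. Among regions listed in all 8 libraries it ranked 40175 and 35187 in control without IL-2 and 35133 and 23646 with it, a mean change of -8292 ranks, toward stronger. In cDKO it ranked 35235 and 29376 without IL-2 and 36778 and 38192 with it, a mean change of 5180 ranks, toward weaker. In control, replicate 1 with IL-2 (35133) stood level with replicate 2 without it (35187). The difference between the genotypes was not tested, and the share of all regions that move in opposite directions is not given here.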

How the results depend on the processing

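The lists carry no read depth, and a call turns on whether a weak peak passes rank 65811, so calls near that rank are the least certain. Beside leaving out libraries, 78 alternative counts were computed for the 12 main counts, and 38 were within 1.5 times the main count. A count has no sign, so the directions are given where they turned. Leaving out a library makes a call easier to meet, so the leave-one-out counts of calls can only stay or rise. Their share over all regions is not given here. The 1 region higher in cDKO became 0 with the deposited lists, N halved, a −log10 q of at least 3, ranking by fold and gene bodies alone, and 3 with the looser call (leave-one-out 1 to 2, the 2 without cDKO replicate 2 of the arm without IL-2). The 1 lower region became 0 with the deposited lists, N halved, the q limit, fold and 50% cover, and 2 with the looser call (leave-one-out 1 to 2, the 2 without control replicate 1 of the arm without IL-2). The 0 regions higher with IL-2 became 1 with 50% cover and 1 with the looser call (leave-one-out 0 to 1, the 1 without cDKO replicate 2 of the arm without IL-2), and the 0 lower became 3 with the looser call (leave-one-out 0 to 0). By genotype without IL-2 the 3 calls became 1 with N halved, fold and gene bodies (leave-one-out 5 to 9). By genotype with IL-2 the 5 (2 higher, 3 lower) became 3 with the deposited lists and the q limit (3 higher, 0 lower in both) and 3 with 50% cover (2 higher, 1 lower), 1 with N halved (lower) and with fold (higher), and 2 with gene bodies (leave-one-out 7 to 8, the 8 without control replicate 1 with IL-2). For IL-2 in control the 3 (1 higher, 2 lower) became 1 with N halved (higher) and with gene bodies (leave-one-out 3 to 6). For IL-2 in cDKO the 2 (1 higher, 1 lower) became 6 with the deposited lists (2 higher, 4 lower), 5 with the q limit (2 higher, 3 lower), 1 with N halved and fold, and 0 with gene bodies (leave-one-out 2 to 7, the 7 without cDKO replicate 2 of the arm without IL-2). The 2 genes that differed by genotype became 0 with the deposited lists, N halved, the q limit and fold, and 1 with 50% cover and gene bodies (leave-one-out 2 to 3, the third being Il21r without control replicate 2 of the arm without IL-2). No gene differed with IL-2 in any alternative run. The 1 region ranked apart by genotype became 5 with the deposited lists and 5 with the q limit (2 better and 3 worse in cDKO in both), and with fold it was 1 better in place of 1 worse (leave-one-out 1 to 3, the 3 without cDKO replicate 2 with IL-2), and the 4 by IL-2 became 2 with N halved (leave-one-out 4 to 9). Same-numbered libraries deviated together (correlation over 0.1) in 1 of 6 pairs of groups. That pair was control without and control with IL-2 (r = 0.387), beside -0.205 to 0.0399 in the other pairs. The main tests did not take the numbers as pairing. The labels do not say whether same-numbered control libraries share a source, so pairing within control cannot be told. With a replicate block the count of genes by genotype was 2 and by IL-2 0, and Il7r and Il9r each had an exact permutation p of 0.125, the smallest of 16 relabellings.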
